A study of Homo sapiens with 24 samples.

Results

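MT2A, MT1E, MT1X, MT1F and MT1G are 5 human metallothionein genes, taken by symbol from a deposited table of 38849 genes measured in mammary epithelial cells before and during a block of transcription. The table also lists 13 other metallothionein genes, used here for comparison, and the pseudogenes MT1P1, MT1P3 and MT2P1. The libraries came from HMLE, a line of immortalized mammary epithelium of human origin, that expressed either RBMS3, an RNA-binding protein, or LacZ, a bacterial enzyme gene that serves as the control. Both lines were grown with serum, epidermal growth factor, insulin and the glucocorticoid hydrocortisone, and both received actinomycin D, an inhibitor of transcription, at 10 µg/mL. RNA was sampled at 0, 90, 180 and 360 min, which with 2 lines gives 8 groups of 3 libraries, 24 in all, and the 0 min group is the start of the treatment. The time course asks for which transcripts RBMS3 sets the stability, since no new RNA is made while transcription is blocked. Which promoter drives each insert, and whether a line is a clone or a pool, was not given in the sources used here.

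Metallothioneins are small cysteine-rich proteins that bind zinc and copper, buffer the free level of these metals and capture cadmium and reactive oxygen species. Their genes lie in a cluster on chromosome 16 and are switched on by zinc through the metal-responsive factor MTF1, which binds short metal response elements in their promoters, and several of them also respond to glucocorticoids. In mammary epithelium MT2A is the widely expressed form, and the MT1 genes are more variable between cells.

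The promoters of MT2A and MT1X, the 2 of the 5 members that matched an entry of the RefSeq promoter table, are shown because the elements that answer to metal lie there. Each line gives the 250 bases before the gene's start in GRCh38.p14, on the forward strand of chromosome 16, with matches to TGCACNC or TGCGCNC on either strand in capitals. MT2A spans chr16:56608334-56608583 and MT1X spans chr16:56682220-56682469.
MT2A: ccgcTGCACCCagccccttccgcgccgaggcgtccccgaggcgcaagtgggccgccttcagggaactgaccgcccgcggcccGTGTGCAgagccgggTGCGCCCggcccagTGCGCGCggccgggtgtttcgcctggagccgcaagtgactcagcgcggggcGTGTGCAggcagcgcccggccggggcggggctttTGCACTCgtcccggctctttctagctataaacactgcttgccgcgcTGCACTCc
MT1X: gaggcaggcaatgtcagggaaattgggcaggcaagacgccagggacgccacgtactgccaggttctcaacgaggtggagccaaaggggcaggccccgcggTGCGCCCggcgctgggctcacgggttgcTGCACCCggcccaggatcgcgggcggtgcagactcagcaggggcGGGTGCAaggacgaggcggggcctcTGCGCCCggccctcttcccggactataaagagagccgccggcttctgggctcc
The MT2A window holds 7 matches, 5 forward and 2 reverse, and the MT1X window holds 4, of which 3 are forward and 1 is reverse. No match overlapped another in either window. Of 35116 promoters of the same length, 0.37% held at least 4 matches and 0.0313% held at least 7, while 24.8% held at least 1. Among the other metallothionein genes, the windows of MT1H, MT1B and MT4 held 8, 3 and 3 matches. MT1H, with the most matches of these windows, was at most 1.07 in any library. MT4 was at 0 in all 24, and MT1B, with as many matches, was at 30.4 or more in each. With windows for so few of the genes, no relation of matches to expression is read. GC content was 73.2% for MT2A and 70.0% for MT1X. A match describes the letters and is no evidence that MTF1 was bound.

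Values are the authors' normalized counts, which set each library on a common scale, so every change is relative to the other transcripts of that library. Total RNA per cell was not measured, and fewer cells that express a gene cannot be told apart from less of its RNA per cell. Separate cultures are not stated for the 3 libraries of each group, so a p-value here reflects only how these libraries vary, possibly for technical reasons. Normalized counts summed to between 6638190 and 8080430 per library. Each RBMS3 library held more RBMS3 transcript than each LacZ library of its time, with values of 174 to 358 against 27.6 to 165. Replicate 2 of LacZ cells at 0 min correlated least with the other 2 libraries of its group, at a Pearson r of 0.909 to 0.911 across genes against 0.954 between those 2.

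The cell type markers differed between the lines. Summed over 8 epithelial genes, the level was 13383 to 18391 in LacZ libraries and 3007 to 10827 in RBMS3 libraries. Summed over 8 mesenchymal genes it was 7453 to 10238 and 38966 to 53092. EPCAM, an epithelial adhesion molecule, had a mean of 1716 ± 30.3 (SD, n = 3) in LacZ cells at 0 min and was at most 13.6 in any RBMS3 library. At 0 min 6 of the 8 epithelial genes were lower in RBMS3 cells and 1 was higher by limma at an adjusted p under 0.05. The higher one was KRT14, a basal keratin, with means of 2555 ± 465 in LacZ and 6059 ± 140 in RBMS3 cells (SD, n = 3), and KRT5, its partner, differed by 0.06 on the log2 scale (adjusted p = 0.846), or by -0.32 (past the threshold) without replicate 2 of LacZ cells. At 90, 180 and 360 min all 8 were lower in RBMS3 cells, where the KRT14 mean was 791, 944 and 1184. Markers of the labelled cell type were thus split in RBMS3 cells at 0 min, with EPCAM near 0 and basal keratins present. CDH1, ESRP1 and TP63 of the epithelial list were near 0 there as well. Their means at 0 min were 7.90, 0 and 3.28 in RBMS3 cells against 319, 903 and 247 in LacZ cells. Among 10 leukocyte or endothelial genes, CD3E, CDH5 and CLDN5 were at 0 in all libraries, and the list summed to 10.3 to 52.5 in LacZ and 14.1 to 52.7 in RBMS3 libraries. The part that the change of cell state plays in the metallothionein differences was not tested.

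MT2A was among the most abundant transcripts of these cells. It ranked second of all genes by normalized count in 23 of the 24 libraries and the third in the other, replicate 2 of LacZ cells at 0 min. The 5 members together held 1.51% to 3.42% of a library's summed normalized counts, and MT2A supplied 84.7% to 91.9% of that. MT1E, a type 1 gene, ranked 13 to 129. MT1X, a broadly expressed type 1 gene, ranked 254 to 967.

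The members' mean summed share was 1.98%, 2.61%, 2.63% and 2.82% in LacZ cells at 0, 90, 180 and 360 min. In RBMS3 cells it was 2.87%, 3.04%, 3.20% and 3.37%, higher than in LacZ cells at each time. The lowest share, 1.51%, belonged to replicate 2 of LacZ cells at 0 min.

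**Figure D1:**
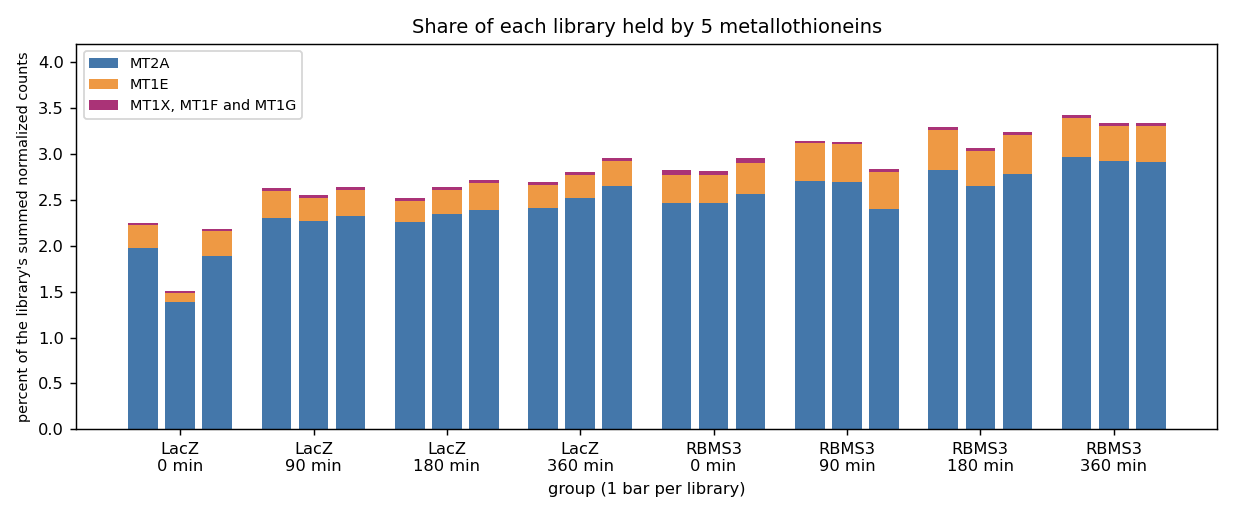
Percent of each library's summed normalized counts (y axis) held by MT2A, MT1E and the 3 other members, 1 bar per library, in the 8 groups (x axis). MT2A fills most of every bar, the 3 LacZ bars at 0 min are the lowest and the 3 RBMS3 bars at 360 min, at 3.34% to 3.42%, are the highest.

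The members were also ordered on the per-length scale of TPM, which divides by transcript length and library size, in the 12 libraries whose transcript file has a name that matches its record. Median TPM was 57112 for MT2A, 14106 for MT1E, 559 for MT1X, 9.58 for MT1F and 6.81 for MT1G. The ranges over libraries did not overlap between MT2A, at 29993 to 64543, and MT1E, at 3751 to 16687, nor between MT1E and MT1X, at 387 to 654. MT1X also lay clear of MT1F, at 3.67 to 57.5. The TPM ranges of MT1F and MT1G, the latter at 0 to 28.2, overlapped. At 90 min in RBMS3 cells the MT1G mean of 9.16 was above the MT1F mean of 7.27. In LacZ cells at 0 min the MT1F mean of 46.1 was above the MT1G mean of 18.1. By normalized count MT1F stood above MT1G in each of the 24 libraries. QuantSeq reads the 3′ end of a transcript, so division by length in TPM can overstate short transcripts against long ones.

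Of the 13 other metallothionein genes, MT1L and MT1B had a mean of at least 10 over all libraries. The remaining 11 never passed 9.61 in any library, the pseudogenes MT1P1, MT1P3 and MT2P1 never passed 27.7, and MT1DP, MT1IP, MT1HL1, MT1XP1 and MT4 were at 0 in all 24. The members are paralogs, so the authors' estimates could divide reads among them where their sequences are shared. Of the 75-base windows of the main transcript model in the GENCODE annotation, none of 258 in MT1E, 342 in MT1F, 231 in MT1G and 712 in MT2A occurred in another gene. For MT1X 119 of 376 windows (31.6%) did, in MT1G, MT1XP1 and AC026461.1, of which MT1G was at most 53.4 and MT1XP1 was at 0. Shorter stretches were shared as well. Of 281 words of 25 bases in MT1G, 40 (14.2%) also occurred in MT2A and 38 (13.5%) in MT1X. Whether reads of these more abundant genes add to the low MT1G values was not tested. The AU-rich pentamer ATTTA was absent from the last 150 bases of all 5 models, against its presence in 21.8% of 83015 protein-coding transcripts. The models of MT2A and MT1X, of 786 and 450 bases, are longer than the 401 and 404 bases of the same transcripts in the deposited files, so for these 2 genes the windows and last bases may not be those that were quantified.

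The first comparison asks how the lines differed before transcription was blocked. At 0 min 3 members were higher and 1 lower in RBMS3 than in LacZ cells, 4 called of 5 at an adjusted p under 0.05 by limma, where 37.5% of all 12096 tested genes were called. The members' median difference was 0.55 on the log2(normalized count + 1) scale, against 0.0065 over all tested genes. MT1X stood 2.37-fold higher in RBMS3 cells and MT1F was at 0.443 of its LacZ level, so type 1 genes of a single cluster went in opposite directions.

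MT2A stood at 131083, 97915 and 125672 in the 3 LacZ libraries and at 168959, 170039 and 176840 in the 3 RBMS3 libraries. Every RBMS3 library lay above every LacZ library. The log2 difference was 0.55 (SE 0.075, adjusted p = 5.68e-06), and it was 0.22, still past the threshold, when libraries were scaled to cytosolic ribosomal protein genes.

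MT1E read 16591, 7186 and 17734 in LacZ cells and 21219, 21102 and 23184 in RBMS3 cells. The groups did not overlap, and replicate 2 of LacZ was less than the other LacZ libraries by a wide margin. The log2 difference was 0.77 (SE 0.20, adjusted p = 0.00465), and 0.35 without that library. Scaled to ribosomal protein genes it was 0.44 and did not pass, nor did it in a fit of these 2 groups alone.

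MT1X measured 1535, 1292 and 1653 in LacZ cells and 3405, 3427 and 3754 in RBMS3 cells. The lowest RBMS3 library was above the highest LacZ library by far more than the spread within either group. The log2 difference was 1.25 (SE 0.080, adjusted p = 9.38e-11), and it was at least 0.92 and passed in all alternatives run.

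MT1F ran the other way, at 145, 131 and 184 in LacZ cells and 66.2, 65.8 and 67.8 in RBMS3 cells. The groups were apart, and the 3 RBMS3 libraries were nearly equal. The log2 difference was -1.18 (SE 0.28, adjusted p = 0.00226), and it was -1.04 or lower and passed in all alternatives run. For MT1G the values were 24.6, 6.83 and 32.6 against 3.54, 16.6 and 19.2, the groups overlapped, and the log2 difference of -0.69 (SE 0.98, adjusted p = 0.627) did not pass. At levels this low the 95% interval of the MT1G difference ran from -2.73 to 1.35.

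Under actinomycin D the difference between the lines shrank for MT1X, while MT1F stayed lower in RBMS3 cells. At 90 min 2 of 5 members were called, where 29.8% of all genes were, and at 180 min 3 of 5 were called against 33.1%. At 360 min 3 of 5 were called against 35.2%. MT1X was called at none of these times and MT1F at all of them.

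MT1F read 206, 220 and 232 in LacZ cells at 90 min and 26.8, 11.99 and 38.1 in RBMS3 cells, a log2 difference of -3.19 (SE 0.28, adjusted p = 1.66e-08). The RBMS3 libraries were far below, and among themselves they spread more than 3-fold. At 180 min the difference was -2.35 (adjusted p = 1.24e-06), and at 360 min it was -2.47 (adjusted p = 6.42e-07), with every RBMS3 library below every LacZ library.

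For MT1X the lines came together. The log2 difference was 0.15 at 90 min (SE 0.080, adjusted p = 0.162), 0.20 at 180 min (adjusted p = 0.0615) and 0.08 at 360 min (adjusted p = 0.463), the last with overlapping libraries. Its 95% interval at 360 min was -0.08 to 0.25, and the sign turned, to -0.07, under scaling to ribosomal protein genes.

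MT1E and MT2A stayed higher in RBMS3 cells where they passed. The MT1E differences were 0.56 at 90 min (adjusted p = 0.0383), 0.68 at 180 min (adjusted p = 0.0126) and 0.67 at 360 min (adjusted p = 0.0128). The call at 90 min was lost when any of its 6 libraries was left out, and that at 180 min without replicate 1 of LacZ cells. For MT2A the difference was 0.20 at 90 min (adjusted p = 0.0538), 0.26 at 180 min (adjusted p = 0.00939) and 0.27 at 360 min (adjusted p = 0.0068). The later 2 MT2A differences were 0.16 and 0.13 under scaling to ribosomal protein genes, and neither passed there. MT1G differences of -0.53, -1.84 and -1.28 did not pass at any of the 3 times.

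**Figure D2:**
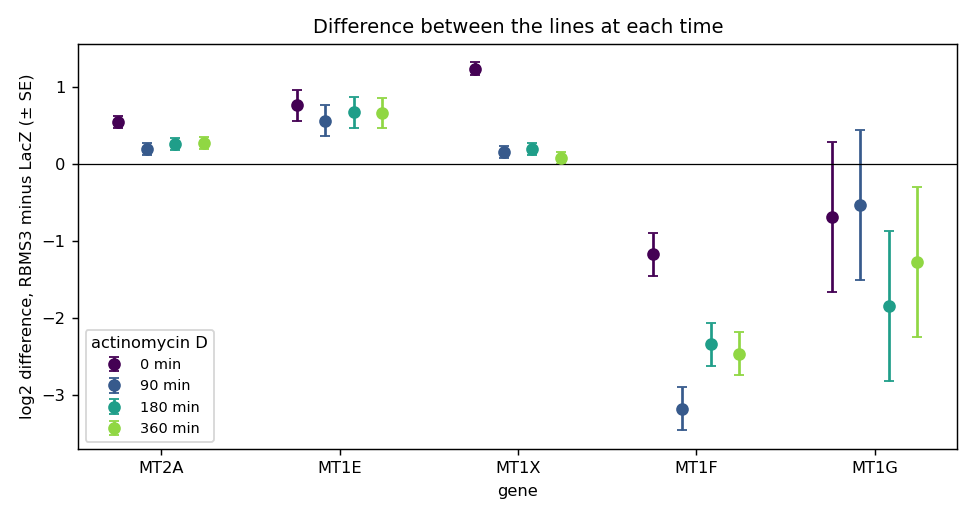
Log2 difference between RBMS3 and LacZ cells (y axis, ± SE of the fit) for each member (x axis) at 4 times of actinomycin D. MT2A and MT1E lie above 0 at all times, MT1X falls from 1.25 to near 0 after 0 min, and MT1F lies below 0 throughout.

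Within LacZ cells the more abundant members rose in normalized count as transcription was blocked. As a share of the library's sum, MT1E at 360 min, at 0.254% to 0.279%, overlapped 0 min, at 0.102% to 0.267%. Of 5 members 1 was called at 90 min, 3 at 180 min and 3 at 360 min, all higher than at 0 min, where 6.18%, 14.6% and 28.5% of all genes were called in either direction. These comparisons share the 0 min libraries.

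MT2A in LacZ cells was 158559, 158312 and 161329 at 90 min and then 168406, 171886 and 174375 at 180 min. The 3 libraries at 360 min read 186308, 194597 and 202362. Each group lay above the one before it, and all 9 libraries lay above the 3 at 0 min. The rise from 0 min was 0.44 (adjusted p = 8.96e-04), 0.55 (adjusted p = 3.54e-05) and 0.73 (SE 0.075, adjusted p = 3.83e-07) on the log2 scale. Scaled to ribosomal protein genes these were 0.20, 0.17 and 0.16 and none passed, where that scaling shifted the median of all genes by -0.24, -0.37 and -0.56. In fits of the compared groups alone the first 2 did not pass.

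MT1X in LacZ cells was 1759, 1714 and 1696 at 90 min and then 1940, 1940 and 1965 at 180 min. At 360 min the values were 2120, 2123 and 1982. All later libraries were above those at 0 min. The change of 0.21 at 90 min (adjusted p = 0.118) did not pass, and it rose by 0.39 at 180 min (adjusted p = 0.00212) and 0.48 at 360 min (adjusted p = 1.22e-04). Under scaling to ribosomal protein genes the 3 values were -0.03, 0.02 and -0.09, so the sign turned at 90 and 360 min, and none passed. The change at 180 min also did not pass in a fit of the compared groups alone.

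MT1E in LacZ cells was 20834, 17898 and 19800 at 90 min and then 17482, 19845 and 21484 at 180 min. The 3 libraries at 360 min read 20006, 19631 and 21290. The 3 later groups overlapped one another, and replicate 2 at 0 min, at 7186, was far below them and below the other libraries of its group. The differences from 0 min were 0.60 (adjusted p = 0.0776), 0.61 (adjusted p = 0.0468) and 0.66 (adjusted p = 0.0172). Without that library they were 0.18, 0.19 and 0.24, and only the last passed. The call at 180 min was also lost when any 1 of the 3 LacZ libraries of that time was left out, with no filter on low values and with robust variance estimates, and that at 360 min without replicate 3 of that time. Both calls were lost in a fit of the compared groups alone, under scaling to the library sum, at 0.49 and 0.48, and under scaling to ribosomal protein genes, at 0.23 and 0.09.

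MT1F in LacZ cells did not pass at any time, with values of 206 to 232 at 90 min, 173 to 228 at 180 min and 207 to 223 at 360 min. Its differences from 0 min were 0.53, 0.33 and 0.51, and the last 2 turned to -0.04 and -0.06 under scaling to ribosomal protein genes. MT1G ranged from 6.21 to 53.4 over the 9 later LacZ libraries and passed at no time.

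In RBMS3 cells the members split after the block, with MT1X and MT1F falling while MT2A and MT1E gained share by 360 min. At 90 min 2 of 5 members were called, both lower, where 14.5% of all genes were called. At 180 min 3 were called, 1 higher and 2 lower, against 25.9%, and at 360 min 4 were called, 2 higher and 2 lower, against 37.6%. These 3 comparisons also share their 0 min libraries.

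MT1X in RBMS3 cells dropped to 2085, 1833 and 1842 at 90 min from 3405, 3427 and 3754 at 0 min. It then stood at 2227, 2164 and 2321 at 180 min and at 2300, 2218 and 2072 at 360 min. The group at 90 min had the lowest mean, and every later library lay below every library at 0 min. The log2 change was -0.88 at 90 min (SE 0.080, adjusted p = 1.30e-07), -0.66 at 180 min (adjusted p = 3.86e-06) and -0.68 at 360 min (adjusted p = 9.99e-07). Over all alternatives run the change at 90 min lay between -0.94 and -0.83, and it passed in each of them.

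MT1F in RBMS3 cells was 26.8, 11.99 and 38.1 at 90 min and then 42.4, 41.2 and 28.0 at 180 min. At 360 min the values were 40.5, 39.0 and 35.6. All 9 lay below the 3 libraries at 0 min. It fell by 1.48 at 90 min (adjusted p = 9.90e-04), by 0.84 at 180 min (adjusted p = 0.0314) and by 0.78 at 360 min (adjusted p = 0.0331) on the log2 scale. The call at 360 min was lost when any one of its 6 libraries was left out, and that at 180 min without any of the 0 min libraries or replicate 3 of 180 min. In fits of the compared groups alone the changes at 90 and 180 min did not pass. The 9 later values rest on 14.0 to 56.1 estimated reads per library.

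MT2A in RBMS3 cells was 191200, 188737 and 168733 at 90 min and then 211349, 198944 and 208057 at 180 min. The 3 libraries at 360 min read 239624, 236360 and 229116. The libraries at 90 min overlapped those at 0 min, and the later ones lay above both. The change of 0.09 at 90 min (adjusted p = 0.492) did not pass, while MT2A rose by 0.26 at 180 min (adjusted p = 0.0133) and 0.45 at 360 min (adjusted p = 7.21e-05). Under scaling to ribosomal protein genes these 2 values were 0.11 and 0.06, and neither passed.

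MT1E in RBMS3 cells was 29078, 28632 and 28661 at 90 min and then 32450, 28957 and 32343 at 180 min. At 360 min the values were 34576, 30605 and 31642. Each of these 9 libraries was above the 3 at 0 min. The differences were 0.40 (adjusted p = 0.203), 0.52 (adjusted p = 0.0631) and 0.56 (SE 0.20, adjusted p = 0.0314), so that MT1E passed at 360 min alone. Without replicate 2 of LacZ cells at 0 min, which enters the shared estimate of spread, all 3 passed. The call at 360 min was lost without any of its 6 libraries except replicate 3 at 0 min, and the value was 0.17, short of the threshold, under scaling to ribosomal protein genes.

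MT1G in RBMS3 cells ranged from 0 to 22.2 over the later libraries and passed at no time. The library listed at 0, replicate 3 at 180 min, had 8342480 estimated reads, and a count of 0 there allows up to 3 reads, a limit for counting error only.

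**Figure D3:**
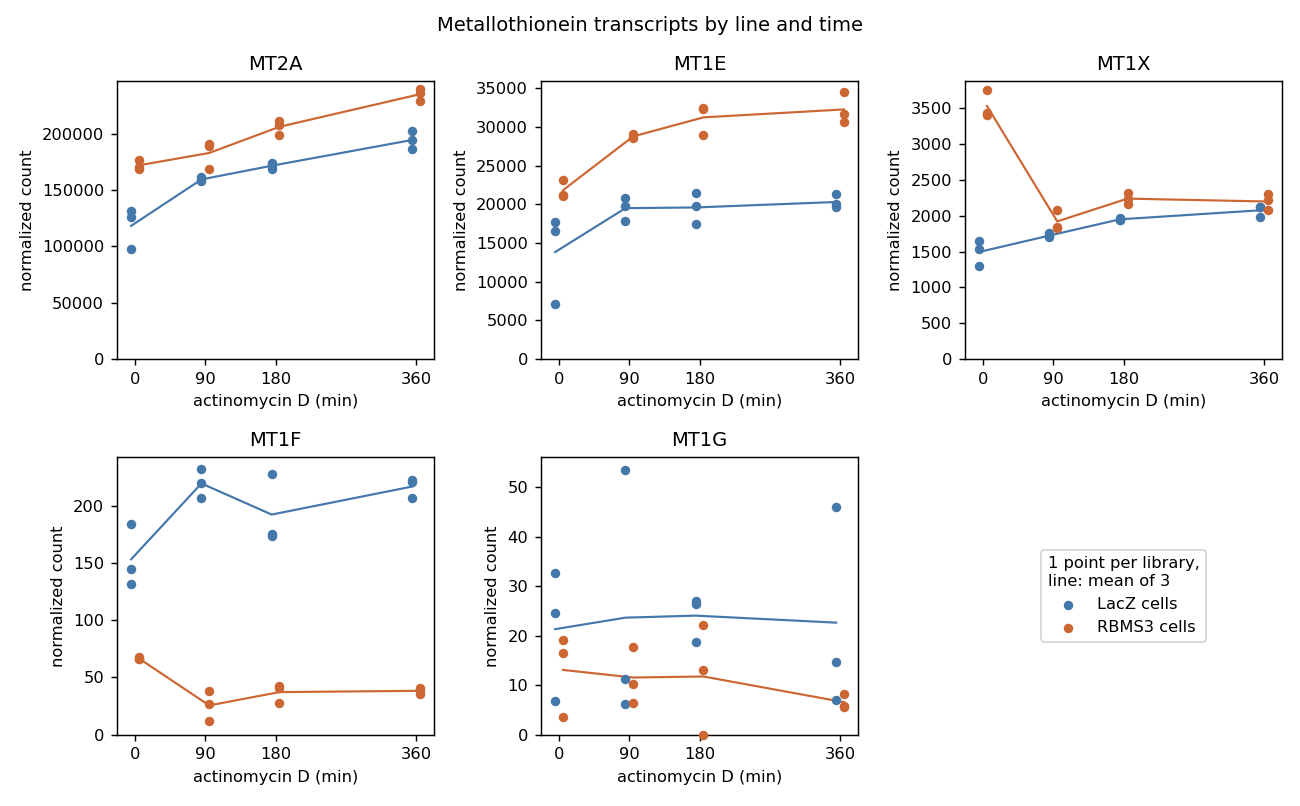
Normalized count (y axis, from 0, own scale per panel) of the 5 members against time in actinomycin D (x axis, min), 1 point per library with a line through the means of 3. The MT2A and MT1E means are higher at 360 than at 0 min in both lines, MT1X drops between 0 and 90 min in RBMS3 cells, and the 2 lines stay apart for MT1F.

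The later times in RBMS3 cells were also compared with one another. From 90 to 180 min none of 5 members was called by limma at an adjusted p under 0.05, against 1.36% of all genes, although 3 had an unadjusted p under 0.05. The MT2A difference of 0.17 (adjusted p = 0.338) passed in edgeR and DESeq2 on the estimated reads, at 0.15 and 0.16. From 90 to 360 min 1 of 5 was called, MT2A, against 16.0%. MT2A rose by 0.36 (SE 0.075, adjusted p = 0.0018), and by 0.31 in edgeR on the estimated reads. The difference was 0.18, short of the threshold, when scaled to the library sum and -0.06 under scaling to ribosomal protein genes. Mean TPM of MT2A did not rise, at 59160 ± 6686 at 90 min and 57083 ± 1323 at 360 min (SD, n = 3). MT1X differed by 0.20 (adjusted p = 0.106) and MT1F by 0.70 (adjusted p = 0.0988) over the same interval, and neither passed.

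The difference of the 2 time courses was tested directly, as the change from 0 min in RBMS3 cells minus that in LacZ cells. By 90 min 2 of 5 members were called, both with a more negative change in RBMS3 cells, where 5.23% of all genes were called. By 180 min 1 of 5 was called against 6.36%, and by 360 min 1 of 5 against 7.77%. MT1X was the member called at each time, and for the linear slope over 6 h it was again 1 of 5, against 5.18%.

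For MT1X the difference of changes was -1.09 by 90 min (SE 0.11, adjusted p = 4.63e-06), -1.05 by 180 min (adjusted p = 9.33e-06) and -1.16 by 360 min (adjusted p = 1.86e-06). All 3 passed in every alternative run, and they share the 0 min libraries of both lines. The slopes differed by -0.16 log2 per hour (SE 0.018, adjusted p = 2.71e-05). The fall of MT1X in RBMS3 cells lay between 0 and 90 min, so the slope describes no steady loss. From 90 to 360 min MT1X there differed by 0.20, which did not pass. For MT1F the difference of changes was -2.01 by 90 min (SE 0.40, adjusted p = 0.00394). The later MT1F values of -1.17 (adjusted p = 0.0887) and -1.29 (adjusted p = 0.0503) did not pass. MT2A came to -0.36, -0.29 and -0.28, with adjusted p of 0.0555, 0.122 and 0.122, and the first passed when any LacZ library at 0 min was left out. For MT1E the values of -0.20, -0.09 and -0.10 did not pass, and without replicate 2 of LacZ cells at 0 min they turned to 0.22, 0.33 and 0.32.

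**Figure D4:**
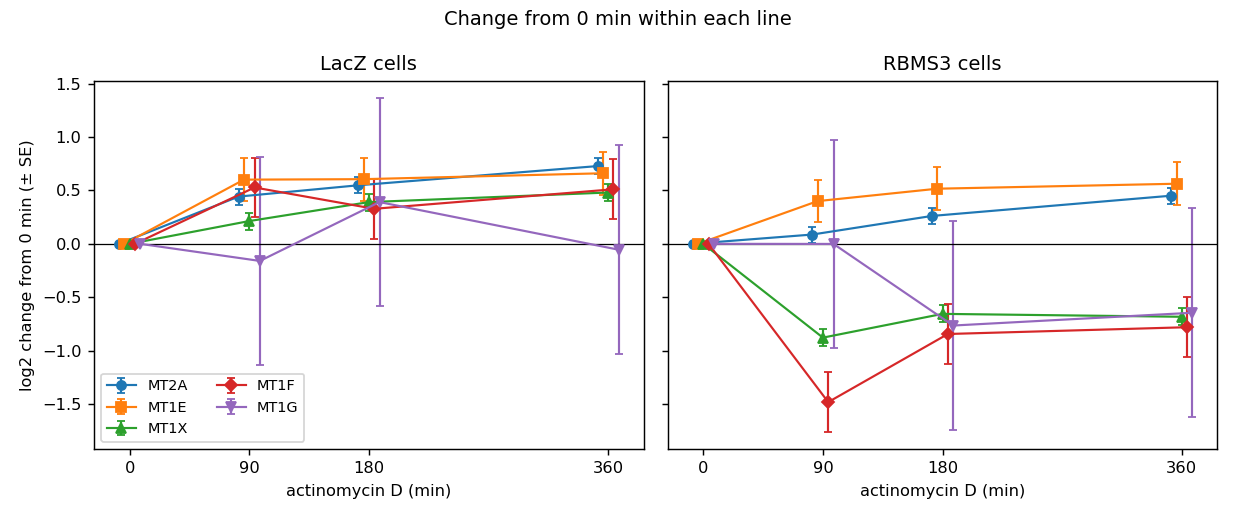
Log2 change from 0 min (y axis, ± SE of the fit) against time in actinomycin D (x axis, min) for the 5 members in LacZ cells (left) and RBMS3 cells (right). In LacZ cells MT2A, MT1E, MT1X and MT1F lie above 0 on the deposited scale, where MT1X and MT1F change sign in part under scaling to ribosomal protein genes, while in RBMS3 cells MT1X and MT1F lie below 0 from 90 min on.

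MT1L, annotated as a pseudogene, and MT1B, a type 1 gene, were the other metallothioneins that entered the test. MT1L read 361, 198 and 329 in LacZ cells and 851, 876 and 814 in RBMS3 cells at 0 min, a log2 difference of 1.56 (SE 0.17, adjusted p = 2.56e-07). By 360 min it stood at 497, 538 and 490 against 1471, 1473 and 1418, and the difference was 1.52 (adjusted p = 4.49e-07). All RBMS3 libraries lay above all LacZ libraries at each time. The differences of the changes were -0.25, -0.01 and -0.05, which did not pass and were above 0 under scaling to ribosomal protein genes.

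MT1B did not differ between the lines past the threshold, with means of 189 ± 138 and 243 ± 12.3 (SD, n = 3) at 0 min, a log2 difference of 0.89 (adjusted p = 0.173) that was -0.14 without replicate 2 of LacZ cells. That library held 30.4 against 251 and 285 in its group. MT1B rose by 1.39 from 0 to 360 min in LacZ cells (adjusted p = 0.0413), and by 0.36, which did not pass, without the same library.

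MTF1, the factor that activates metallothionein genes when zinc rises, was lower in RBMS3 cells. It read 296, 249 and 309 in LacZ cells and 134, 143 and 93.4 in RBMS3 cells at 0 min, with no overlap, and the log2 difference was -1.21 (SE 0.25, adjusted p = 5.68e-04). MTF1 fell in both lines, by 1.33 in LacZ cells (adjusted p = 4.11e-04) and by 1.14 in RBMS3 cells (adjusted p = 0.00109) from 0 to 360 min. The difference of those changes was 0.19 (adjusted p = 0.808).

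**Figure D5:**
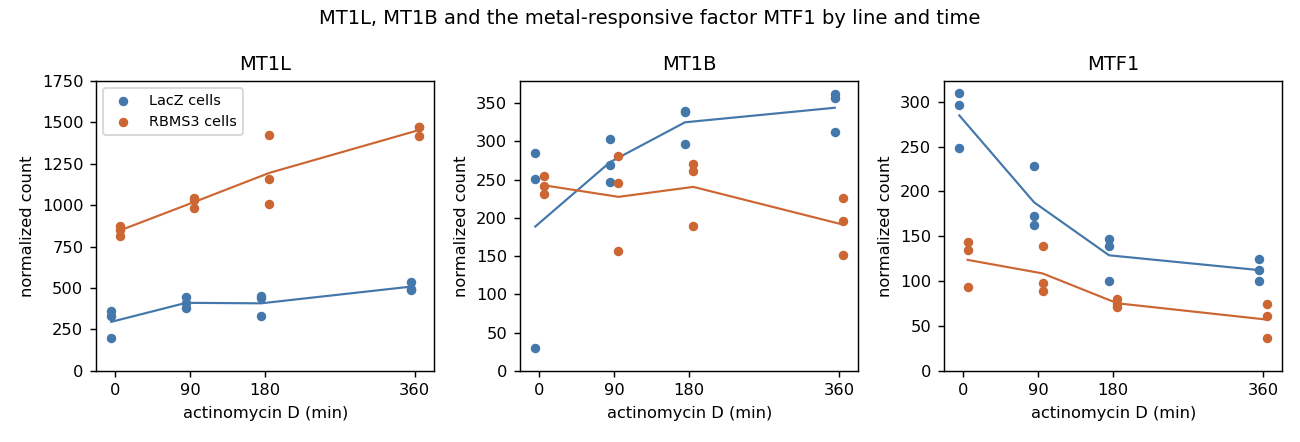
Normalized count (y axis, from 0, own scale per panel) of MT1L, MT1B and MTF1 against time in actinomycin D (x axis, min), 1 point per library with a line through the means of 3. MT1L is higher in RBMS3 cells at all times, MTF1 declines in both lines, and 1 LacZ library at 0 min lies at 30.4 for MT1B.

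Genes that move zinc were compared at 0 min from the SLC30 exporter and SLC39 importer families. Of 6 tested exporters 2 were higher and 1 lower in RBMS3 cells, and of 11 tested importers 4 were higher and 1 lower, where 37.5% of all tested genes were called, 2250 higher and 2284 lower. These counts are not far from that share, and nothing particular to the families is read from them. The importers SLC39A14 and SLC39A13 differed by 1.52 (adjusted p = 6.20e-06) and 1.23 (adjusted p = 1.25e-07), and the exporter SLC30A9 by 0.76 (adjusted p = 0.00518). The calls for SLC30A9 and the importer SLC39A9 were lost under scaling to ribosomal protein genes, at 0.44 and 0.39, and in a fit of the compared groups alone. That for the importer SLC39A6 was lost under this scaling, at 0.14. The median was 0.57 over the exporters and 0.07 over the importers. Of 14 genes of copper handling 5 were higher and 3 lower, against the same 37.5%. SLC31A2, a low-affinity copper transporter, was among the lower ones, at -2.74 (adjusted p = 8.46e-06). Among the higher ones, COX11 and COMMD1 lost their calls under scaling to ribosomal protein genes, at 0.33 and 0.30. Both calls were also lost in a fit of the compared groups alone.

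Of 15 antioxidant genes driven by NRF2, 1 stood higher and 7 lower in the RBMS3 line at 0 min and 7 did not pass, against 37.5% of all genes called, and the list's median was -0.41. GCLM and GCLC, the subunits of the enzyme that starts glutathione synthesis, differed by -1.53 (adjusted p = 4.84e-12) and -1.38 (adjusted p = 4.39e-05). SLC7A11, the cystine importer, differed by -1.30 (adjusted p = 1.89e-06).

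Of 12 genes, the glucocorticoid receptor and genes it induces, 8 stood higher in RBMS3 than in LacZ cells at 0 min and 1 lower, against 37.5% of all genes called in either direction, with a median of 1.45, both lines having been grown with hydrocortisone. TSC22D3, a glucocorticoid-induced leucine zipper protein, differed by 2.08 (adjusted p = 7.87e-09) and ZBTB16, an induced transcription factor, by 6.12 (adjusted p = 1.14e-06). DUSP1 had means of 28.8 ± 13.7 in LacZ and 257 ± 36.4 in RBMS3 cells (SD, n = 3). For SGK1 the means were 156 ± 12.2 and 738 ± 150 (SD, n = 3). After 360 min none of the 12 was higher and 10 were lower than at 0 min in RBMS3 cells, against 37.6% of all genes called, and in LacZ cells 2 were higher and 5 lower, against 28.5%. DUSP1 fell by 7.46 in RBMS3 cells (adjusted p = 7.70e-07) and KLF9, another induced transcription factor, fell by 3.48 (adjusted p = 7.29e-11).

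FKBP5, a co-chaperone of the receptor singled out here after its values were seen, had its highest mean, like MT1X, in RBMS3 cells at 0 min. Its means were 648 ± 19.9 in LacZ and 2174 ± 36.8 in RBMS3 cells at 0 min, and 765 ± 28.7 and 1430 ± 151 at 90 min (SD, n = 3). The trait is not particular to FKBP5. KLF9 and SGK1 of the same list, and KRT14 outside it, also had their highest mean in RBMS3 cells at 0 min. TFCP2L1 of the list had its highest in LacZ cells at 360 min. Since FKBP5 was picked for this pattern, the values are a description with no test.

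Genes next to the cluster on chromosome 16 were compared in the same way. Of 6 tested neighbours at 0 min 2 were called, where 37.5% of all genes were. One was higher, HERPUD1, a stress gene of the endoplasmic reticulum, at 0.78 (adjusted p = 0.0247), and the other was lower, OGFOD1, an oxygenase that acts on ribosomes, at -0.97 (adjusted p = 4.76e-06). The call for HERPUD1 was lost under scaling to ribosomal protein genes, in a fit of the compared groups alone, and without replicate 2 of LacZ cells or replicate 1 or 2 of RBMS3 cells at 0 min. The list's median was 0.08. At 90, 180 and 360 min 2 of the 6 were called, both lower in RBMS3 cells, against 29.8%, 33.1% and 35.2% of all genes. Within RBMS3 cells HERPUD1 was the neighbour called, with means of 396 ± 23.3 at 0 min, 175 ± 28.8 at 90 min and 100.5 ± 25.5 at 360 min (SD, n = 3). It fell by 1.18 by 90 min (adjusted p = 0.00392) and by 2.00 by 360 min (adjusted p = 4.63e-06) on the log2 scale. Its change differed from that in LacZ cells by -1.24 by 90 min (adjusted p = 0.0575), which did not pass, and by -1.74 by 360 min (adjusted p = 0.00522), which did not pass in a fit of the compared groups alone.

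The patterns of MT2A, MT1E, MT1X and MT1F over the 8 group means were compared with those of 9096 other genes, all with a mean of at least 50. MT1G, with a mean of 16.8, was not compared. The closest by Pearson r were ATP5PF and LSM3 for MT2A, both at 0.99, and USP14 and DEGS1 for MT1E, also at 0.99. For MT1X they were THAP9-AS1 at 0.99 and STS at 0.98, and for MT1F they were SORL1 and LITAF at 0.99. These 8 points share libraries, line and time, and the values are a description. Among the members themselves MT1E and MT2A had an r of 0.91 and MT1E and MT1L an r of 0.95. MT1X and MT2A reached 0.46, and MT1F was opposed to MT1E at -0.78.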

How the data were processed

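QuantSeq libraries with 75-base single reads were made from 24 samples, 3 for each line and time, per the labels' protocols. The authors deposited a table of normalized counts, a signal per gene on a common scale, and transcript files of estimated counts and of TPM. DESeq2 1.32.0, Salmon 1.4.0 and Trim Galore 0.6.6 are named in the submitters' processing notes. Which genome build or annotation they used was not given in the sources used here. For 12 of 24 transcript files the name and the record disagree, and these were not used. The 12 used hold 4426440 to 9856340 estimated reads each.

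The metallothioneins and gene lists were chosen with earlier results of these data known. On log2(normalized count + 1), limma 3.58.1 in R 4.3.3 was fitted with 8 group means to 12096 genes with a mean of at least 10, with a trended prior and Benjamini-Hochberg adjustment at 0.05, two-sided. Estimated counts of RBMS3 libraries at 90, 180 and 360 min, rounded, were tested with edgeR 4.0.16 and DESeq2 1.42.0. Scaling to 54 ribosomal protein genes, other pseudocounts and filters, a replicate block and left-out libraries were alternatives. Of each list up to 4 genes past the test and the largest difference could be named, where the higher group averaged 50 or more and the groups did not overlap. Members, MTF1 and the other metallothioneins were named whatever their values. Of the 5 genes most like each member with a mean of at least 50, the closest 2 are given. Same-numbered libraries were not paired. Intervals and floors cover counting error only where they come from reads.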

Additional observations from a re-analysis of the deposited data

Results flagged for a closer look

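The change from 0 min under actinomycin D differed between the lines for MT1X and MT1F, by a test of the difference itself in limma. No culture without actinomycin D is among the samples of the later times. Both contrasts rest on the RBMS3 libraries at 0 min, where other genes also stood apart from 90 min. In RBMS3 cells the KRT14 mean went from 6059 at 0 min to 791 at 90 min. Of the mesenchymal genes, FN1 went from 30642 to 14879, while VIM rose from 14468 to 18525. Whether the 0 min libraries differ from the later ones for a reason other than the block was not tested. For MT1X the log2 change from 0 min in RBMS3 cells minus that in LacZ cells was -1.09 by 90 min. It was -1.05 by 180 min and -1.16 by 360 min, and these values share the 0 min libraries. The linear slope of MT1X differed by -0.16 per hour, and its fall in RBMS3 cells lay between 0 and 90 min. For MT1F the difference of changes was -2.01 by 90 min. The MT1F values by 180 and 360 min, -1.17 and -1.29, and its slope, at -0.13 per hour, did not pass.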

How the results depend on the processing

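Of the members' results, MT1X at 0 min, its fall in RBMS3 cells and its differences of changes, and the MT1F differences between the lines, passed in every alternative run. Scaling to ribosomal protein genes left 1 member called between the lines at 90 min, 0 in LacZ cells at 90, 180 and 360 min, and 2 in RBMS3 cells at 360 min, and it moved the share of higher calls among all genes from 52.3% to 2.27% in LacZ cells at 360 min, from 50.7% to 16.8% in RBMS3 cells at 360 min and from 49.6% to 24.7% between the lines at 0 min. Without a filter 1 member was called between the lines at 90 min and 2 in RBMS3 cells at 360 min. Scaling to the library sum, added after the data were seen, gave 1 at 90 min between the lines and 0 from 90 to 360 min in RBMS3 cells. Fits of the compared groups alone gave 0 in LacZ cells at 90 and at 180 min. The difference of changes by 360 min had 2 members called with a pseudocount of 5, a mean of at least 50, the library sum, a robust prior or the compared groups alone. From 90 to 180 min in RBMS3 cells edgeR and DESeq2 called 1 member, and 363 and 495 of all genes. From 90 to 360 min edgeR called 2990 of all genes.

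Signs turned under scaling to ribosomal protein genes for MT1X between the lines at 360 min (-0.065), for MT1X in LacZ cells at 90 and 360 min (-0.031 and -0.089), for MT1F there at 180 and 360 min (-0.043 and -0.056) and for MT1G in RBMS3 cells at 90 min (0.030, and 0.013 with a pseudocount of 0.5). The differences of changes by 90, 180 and 360 min turned to 0.076, 0.13 and 0.083 for MT1E, its slope to 0.012, and those of MT1L to 0.029, 0.21 and 0.13. From 90 to 180 min in RBMS3 cells MT1E became -0.070, MT2A -0.012 and MT1B -0.081, and MT1G became 0.051 in edgeR. From 90 to 360 min MT1E became -0.26 (-0.025 with the library sum), MT1X -0.23 and MT2A -0.059. KRT5 between the lines at 0 min became -0.27. The cause of these turns was not tested.

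With single libraries left out, members called ranged from 1 to 3 between the lines at 90 min and in LacZ cells at 90 min, from 2 to 4 in RBMS3 cells at 360 min, from 1 to 2 for the differences of changes by 180 and 360 min, from 0 to 1 from 90 to 180 min in RBMS3 cells and from 1 to 2 from 90 to 360 min. Results whose sign turned had these ranges. MT1E differences of changes ran from -0.43 to 0.22, -0.32 to 0.33 and -0.33 to 0.32, with a slope from -0.038 to 0.049, and those of MT1L from -0.41 to 0.019, -0.18 to 0.25 and -0.21 to 0.22, with a slope from -0.016 to 0.042. KRT5 between the lines at 0 min ran from -0.32 to 0.27. The MTF1 difference by 360 min ran from -0.024 to 0.49 and its slope from -0.019 to 0.069. MT1B ran from -0.14 to 1.45 between the lines at 0 min, and in RBMS3 cells from -0.31 to 0.11 at 90 min, -0.12 to 0.13 at 180 min and -0.14 to 0.28 from 90 to 180 min. MT1G ran from -1.14 to 0.32 between the lines at 90 min, from -1.005 to 0.45, -0.24 to 0.81 and -0.74 to 0.53 in LacZ cells at 90, 180 and 360 min, from -0.69 to 0.39 and -1.64 to 0.63 in RBMS3 cells at 90 and 180 min, and from -1.64 to 0.63 from 90 to 180 min. Its differences of changes ran from -0.53 to 1.00, -2.03 to 0.24 and -1.27 to 0.10.

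Same-numbered libraries did not deviate together, with correlations of -0.082 to 0.116. With the replicate number as a block the members called at 0 min stayed 4, and among the members' calls MT1E in RBMS3 cells at 180 min alone was altered, at 0.52 now past the threshold. MT1G and MT1F in RBMS3 cells are limited by their few reads.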

Other observations

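Replicate 2 of LacZ cells at 0 min was low for several metallothioneins and for a zinc exporter. On the log2 scale it lay below the mean of the other 2 libraries of its group by these amounts, given as differences: MT2A -0.39, MT1E -1.26, MT1X -0.30, MT1L -0.80 and MT1B -3.10. SLC30A1, an exporter induced by zinc and singled out after its values were seen, read 10.2 there against 76.2 and 110, a difference of -3.04. Each of these 6 genes had its lowest value of all 24 libraries in that library, as did 16.1% of the 12096 tested genes, and the median difference over all tested genes was 0.015. The drops of MT2A and MT1X were ordinary for that library, since 29.5% and 33.4% of the tested genes dropped further, against 8.84% for MT1E, 16.4% for MT1L, 1.00% for MT1B and 1.09% for SLC30A1. MT1F, at -0.31, and MT1G, at -1.90, were not at their lowest there. MTF1 differed by -0.28. The cause was not tested.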
